A study of Homo sapiens with 22 samples.

Results

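MTBP peaks that the authors placed outside promoters and enhancers and annotated to a repeat of the L2, CR1 or MIR family were taken from the deposited list of MTBP peaks. The rule used the list's chromosome, its location class (Others) and the family named in its annotation, and no measured value. It found 1014 peaks on chromosomes 1 to 22 and X, of 29848 MTBP peaks there. Of these, 471 were in L2, 454 in MIR and 89 in CR1. They made up 7.13% of the 14228 peaks of the class Others, and 22.4% of the 4524 peaks of that class with any repeat annotation. All 1014 are accounted for here, and no filter on low values was applied unless one is named. Over all location classes, 1532 peaks were annotated to these families, and 66.2% of them were in Others.

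The cells were DLD-1, an established human colorectal adenocarcinoma line, and the study asked where MTBP binds the genome in relation to the start of DNA replication. CUT&RUN, which uses an antibody to bring a nuclease to a protein and frees the DNA bound there, was run with a FLAG antibody in the deltaC line (MTBP-mAID/MTBP-deltaC-FLAG, 3 libraries), in the WT line (MTBP-mAID/MTBP-WT-FLAG, 3 libraries) and in a control (MTBP-mAID/MTBP-mAID, 3 libraries) without FLAG. DeltaC lacks the C-terminus of MTBP. All these lines carried an MTBP copy fused to mAID, a degron tag. The WT line also gave 2 H3K4me2 and 2 IgG CUT&RUN libraries. EdU-seq, which sequences newly made DNA, was run on released deltaC cells, released WT cells and G1-arrested WT cells (3 libraries each). Those cells had 10 µM EdU for 3 hr, and hydroxyurea and aphidicolin were present to hold forks near their origins. The 3 deposited lists give 1 value per line and peak and no library values, so the depth is unknown and no value has an SD. No test between deltaC and WT could be made. How many clones each line stands for is not given in the sources used here, and the control, IgG and G1-arrested libraries were not analysed here. Copy number was not examined. Peaks are not replicates, and each interval below covers the count of peaks only.

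MTBP works with Treslin (TICRR) at the step where CDC45 and GINS join the loaded MCM helicase, which commits an origin to fire. L2 and CR1 are old families of long interspersed elements, and MIR is an old family of short interspersed elements derived from a tRNA gene. All ceased to move long ago and survive in the human genome as short, diverged fragments, some of which serve as enhancers. H3K4me2 is a histone mark of promoters and enhancers. The list does not give where in a peak the repeat lies or how much of the peak it fills, and the frequency of these repeats in the genome was not used here.

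Sequence could be shown only where a RefSeq promoter window (GRCh38.p14, 250 bases before to 50 after an annotated start) shared bases with a peak. There were 12 such windows at 11 of the 1014 peaks, all of loci with LOC names. In 5 windows the MTBP summit itself lay inside the window, and these show the DNA at the summits of those 5 peaks only. They were set by where RefSeq annotates a start and do not stand for the 1014. Capitals mark the 21 bases centred on the authors' summit, and bases are counted from 1 at the 5′ end of each window. The repeat's own borders are not marked.
L2 peak upstream of EGFR, LOC105375284, chr7:54995988-54996287, minus strand: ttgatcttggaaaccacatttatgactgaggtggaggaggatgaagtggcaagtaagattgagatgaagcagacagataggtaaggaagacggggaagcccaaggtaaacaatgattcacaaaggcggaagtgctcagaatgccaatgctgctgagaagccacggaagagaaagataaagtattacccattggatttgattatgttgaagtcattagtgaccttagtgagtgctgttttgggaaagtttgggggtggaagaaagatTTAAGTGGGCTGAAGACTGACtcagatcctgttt
L2c peak, LOC124902257, chr9:115157144-115157443, plus strand: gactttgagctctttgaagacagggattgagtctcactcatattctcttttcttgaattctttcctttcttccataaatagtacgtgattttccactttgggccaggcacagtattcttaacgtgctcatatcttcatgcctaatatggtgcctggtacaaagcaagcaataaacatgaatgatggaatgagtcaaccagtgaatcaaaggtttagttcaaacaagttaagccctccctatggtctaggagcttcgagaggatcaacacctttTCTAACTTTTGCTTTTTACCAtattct
L2 peak near SLC2A10, LOC124904918, chr20:46739812-46740111, plus strand: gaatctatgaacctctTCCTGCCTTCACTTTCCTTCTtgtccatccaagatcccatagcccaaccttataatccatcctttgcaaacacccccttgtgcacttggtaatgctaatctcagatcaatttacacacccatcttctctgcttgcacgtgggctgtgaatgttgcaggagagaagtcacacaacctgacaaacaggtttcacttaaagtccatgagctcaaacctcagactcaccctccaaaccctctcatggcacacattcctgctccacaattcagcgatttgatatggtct
L2c peak, LOC124902634, chr11:12224315-12224614, minus strand: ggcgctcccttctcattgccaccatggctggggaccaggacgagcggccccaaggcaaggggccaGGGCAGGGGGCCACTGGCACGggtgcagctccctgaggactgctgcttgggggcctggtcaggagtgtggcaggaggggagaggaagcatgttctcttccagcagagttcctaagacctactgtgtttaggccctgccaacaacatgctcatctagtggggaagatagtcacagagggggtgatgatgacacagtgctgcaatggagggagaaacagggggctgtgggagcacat
MIRb peak, LOC124904160, chr1:41981282-41981581, plus strand: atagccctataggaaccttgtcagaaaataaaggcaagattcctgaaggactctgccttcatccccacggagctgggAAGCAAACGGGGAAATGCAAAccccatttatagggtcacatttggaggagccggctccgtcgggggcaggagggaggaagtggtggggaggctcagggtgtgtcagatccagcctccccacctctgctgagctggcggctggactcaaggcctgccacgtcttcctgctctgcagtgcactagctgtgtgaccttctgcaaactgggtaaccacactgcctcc

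These windows held fewer CpG than RefSeq promoter windows at large. The 12 windows held a median of 3 CpG dinucleotides and 51.7% G and C (38.3% to 61.0%), against medians of 14 and 58.7% over all 34943 windows. The class leaves out promoters by the authors' placement, so this comparison, like that of the GC box below, does not describe the repeats themselves. Also, 2 of the 12 windows, both of LOC105370011, overlap each other at the same peak. The GC box GGGCGG, searched on both strands as all motifs were, was in 0 of the 12 and in 44.9% of all windows. TGANTCA, the AP-1 motif, was in 2 of the 12 and in 7.72% of all windows. In the window upstream of EGFR it began at bases 113 and 284, with the summit at base 277, so the match at 284 begins inside the capitals. In LOC124902257 it began at bases 189 and 201, with the summit at base 284. The TCF/LEF motif CTTTGAT was in 1 of the 12, again LOC124902257, where it began at base 204 and overlapped an AP-1 match. It was in 2.63% of all windows. A match describes letters and shows no binding by these factors.

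In signal and size the repeat peaks were close to the other peaks of their class. Their authors' score, of unstated scale, ran from 47 to 1240 with a median of 180 (95% interval 170 to 190). The median was 185 for the other 13214 peaks of the class and 190 for all MTBP peaks. The median width was 856 bp (835 to 879), against 839 bp for other peaks of the class and 937 bp for all. The narrowest was an L3 peak of 252 bp in CORO2B (chr15:68673889-68674141) and the widest a MIRc peak of 3863 bp in EFCAB14 (chr1:46686276-46690139). Summits sat at a median of 0.498 of the peak's width from its start. Per peak, the authors' signal had a median of 197.5 in deltaC (190.3 to 208) and of 333 in WT (320 to 348).

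The strongest peaks in these repeats were in genes of several functions and between genes. The highest score, 1240, belonged to an L2c peak at chr15:61555782-61556826, with a signal of 809 in deltaC and 1448 in WT. Its nearest protein-coding gene end, of the lipid transfer gene VPS13C, was 296085 bp away. An L2a peak in GNA14, a G protein alpha subunit gene (chr9:77514820-77515946, score 1177), had 533 in deltaC and 1169.7 in WT. The L2c peak in PRKCE, a protein kinase C gene (chr2:45991756-45994056, score 1038), had nearly equal signal, 1173 in deltaC and 1284 in WT. In STIM1, the calcium sensor of the endoplasmic reticulum, an L2 peak (chr11:3904052-3906570, score 1007) had 1066 in deltaC and 1605 in WT. The strongest MIR peak (chr16:86490613-86492188, score 1022) lay 19127 bp from FOXF1, a forkhead transcription factor gene. The strongest CR1 family peak was an L3 peak in SEPTIN4 (chr17:58534787-58536214, score 844), with 505 in deltaC and 942 in WT. Of the 12 highest scores, all 12 had H3K4me2, 6 were in protein-coding genes and 3 in initiation zones. Over all repeat peaks the share in zones was 11.4% in the lowest quartile of score and 17.2% in the highest. Other peaks of the class in the same score ranges had 14.6% and 18.1%.

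DeltaC signal was below WT signal at most of these peaks. The median of log2((deltaC + 1)/(WT + 1)) was −0.85 (−0.90 to −0.81), with the middle 50% of peaks between −1.25 and −0.46. The median was −0.89 over the other peaks of the class and −0.93 over all MTBP peaks, so the repeat peaks stood 0.079 above all peaks. DeltaC was at least 2-fold below WT at 408 peaks (40.2%, 37.2% to 43.3%), against 42.2% of the other peaks of the class and 44.9% of all MTBP peaks. It was at least 2-fold above WT at 11 peaks (1.08%, 0.543% to 1.93%), against 0.590% of the other peaks of the class and 0.419% of all. Both of these 2-fold shares of the other peaks of the class lie inside the intervals of the repeat peaks, and LTR peaks of the class had 0.921% above. By any amount, deltaC was above WT at 97 repeat peaks (9.57%, 7.83% to 11.5%). That share was 6.21% of the other peaks of the class and 4.52% of all, both below the interval, and this difference was not tested. The scaling of the signals between lines is not given in the sources used here, so the ratio's zero is the authors' own. With deltaC rescaled so that all MTBP peaks had a median of 0 in place of −0.93, the median of the repeat peaks was 0.079. Then 7.10% of them were at least 2-fold below WT, against 7.64% of all, and 8.38% at least 2-fold above, against 3.73% of all. All MTBP peaks include promoters and enhancers. The rescaled shares were not computed for the other peaks of the class, so these values do not set the repeats apart from their class. The plot of deltaC against WT signal shows 1 cloud for the 3 families, with medians of −0.89 in L2, −0.82 in MIR and −0.82 in CR1.

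**Figure D1:**
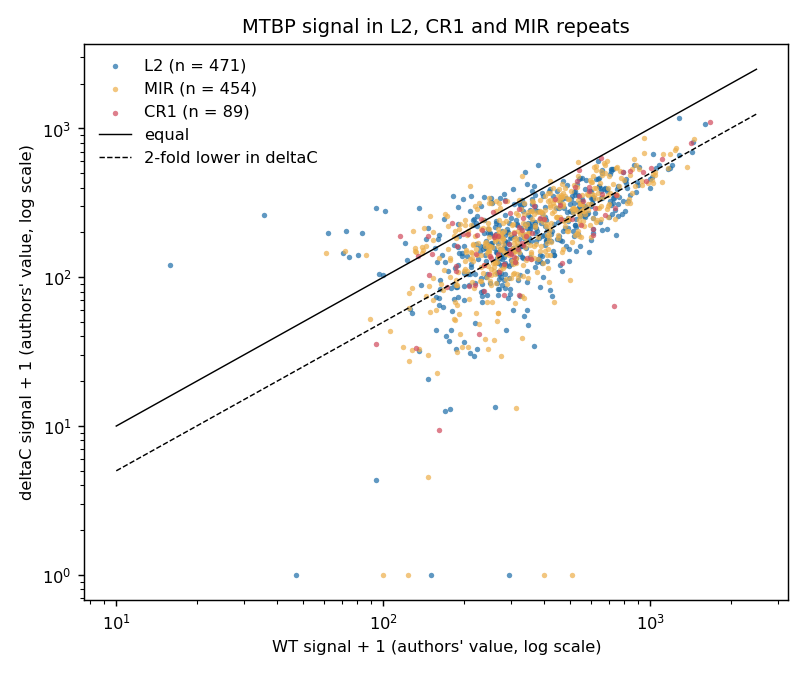
DeltaC signal against WT signal (authors' values plus 1, log axes), 1 point per MTBP peak in L2 (blue, 471), MIR (yellow, 454) or CR1 (red, 89), with lines at equality and at 2-fold lower in deltaC. Most points lie between or near the lines, 11 L2 or MIR points lie at least 2-fold above equality, and 7 points lie at the bottom, where the deltaC signal is listed at 0.

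The lowest and highest ratios were taken among the 461 peaks whose mean signal was at least 285, the median of all MTBP peaks. The lowest was the only peak in a CR1-L3A_Croc element (chr16:73771236-73772701), in the transcription factor gene ZFHX3, with 63.2 in deltaC and 733 in WT, a log2 of −3.51. A MIRc peak at chr12:92457416-92458589 had 94.1 in deltaC and 499 in WT (−2.39). The L2 peak 3653 bp from SLC2A10, a glucose transporter gene, whose sequence is given above for LOC124904918, had 146 in deltaC and 590 in WT (−2.01). The other low ratios were in TMEM50A (L2a, −2.09) and in EPHB1, an ephrin receptor gene (L2c, −1.96). At the other end, a MIRb peak in SCAPER (chr15:76669438-76670009) had 407 in deltaC and 209.8 in WT (0.95). An L2c peak in KEL (chr7:142956766-142957900), the Kell blood group gene, had 508 in deltaC and 338 in WT (0.59). A further MIRb peak of ZFHX3 (chr16:73204536-73205270) was among the highest, with 481 in deltaC and 329.6 in WT (0.55), so this gene held peaks at both ends of the range. The other high ratios were an L2b peak at chr13:44219893-44222249 (0.57) and an L2c peak in GRIN3A, an NMDA receptor subunit gene (0.54).

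Peaks named for deltaC in the list were 62 of the 1014 (6.11%, 4.72% to 7.77%), against 2.94% of all MTBP peaks and 4.12% of the other peaks of the class. What the names stand for is not given in the sources used here. The 62 were weak, with a median score of 108 and median signals of 208 in deltaC and 152 in WT, and 3 of them lay in initiation zones. The other peaks of the class named for deltaC were alike, with a median score of 108 and median signals of 190 in deltaC and 149 in WT. In the rest of the class, all 78 peaks with at least 2-fold higher deltaC signal were named for deltaC. So were all 11 such repeat peaks, 9 in L2 elements and 2 in MIRb, so this naming is not particular to these repeats. The WT signal of these 11 ran from 14.8 to 135 and their deltaC signal from 119 to 292. The largest fold was at an L2c peak 7858 bp from NEFM, a neurofilament gene, without H3K4me2, with 119 in deltaC and 14.8 in WT (log2 2.93). An L2c peak in MTMR2, a lipid phosphatase gene (chr11:95893064-95893651), had 262 in deltaC and 34.9 in WT (2.87). An L2b peak in CAMK1D (chr10:12751303-12751834), a calmodulin-dependent kinase gene, had 198 in deltaC and 61.2 in WT (1.68). Only the last 2 of these 3 had H3K4me2, and both were outside initiation zones.

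DeltaC signal was listed at 0 at 7 of the 1014 repeat peaks, against 186 of 29848 MTBP peaks, a like share. WT signal was listed at 0 at none of them, against 2 of all MTBP peaks. These 7 were chosen for description after their values were seen. The strongest was a MIR peak in AUTS2, a gene of neuronal development (chr7:70570751-70571859, score 459), with a WT signal of 508. A MIRc peak 44396 bp from GPR26 (chr10:123621575-123622344) had 398 in WT. The other 5 had WT signals from 46.1 to 294. A listed 0 can be a value that was not estimated, and no fold is given for these peaks.

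The next question was whether MTBP in these repeats lay in the initiation zones mapped by EdU-seq. Of the 1014 peaks, 155 overlapped a zone by at least 1 bp (15.3%, 13.1% to 17.7%), against 23.0% of all MTBP peaks. The share was 15.6% (15.0% to 16.2%) among the other peaks of the class, inside the interval of the repeat peaks. Counting 1 peak per zone or per run of peaks within 50 kb, the share was 15.0% (12.8% to 17.4%) for the repeat peaks and 15.8% for all MTBP peaks, so the distance from all peaks was not kept. The same families had 35.0% of 343 peaks in zones in the enhancer class (29.9% to 40.3%) and 33.1% of 175 in the promoter class (26.2% to 40.6%). Within Others, Alu peaks had 26.2% in zones and L1 peaks 11.8%. LTR elements had 16.4%, DNA transposons 14.9%, intron annotations 9.94% and intergenic annotations 21.2%.

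**Figure D2:**
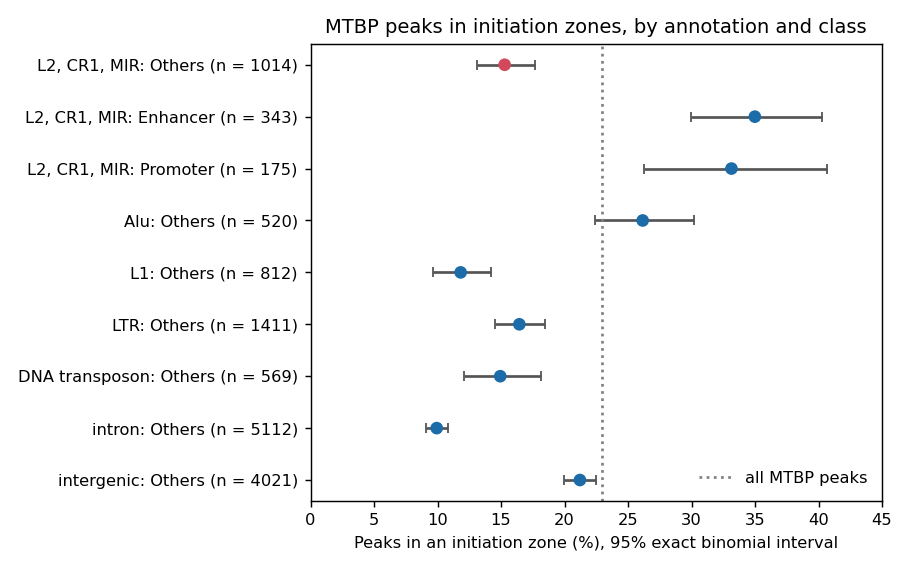
Share of MTBP peaks in an initiation zone, in percent with exact binomial 95% intervals, by repeat or other annotation and location class, with all MTBP peaks as the dotted line. The L2, CR1 and MIR peaks of Others (red, 15.3%) sit left of the same families in the enhancer (35.0%) and promoter (33.1%) classes.

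Peaks in zones had a lower deltaC/WT ratio than those outside. In zones the median log2 was −1.01 (−1.13 to −0.89, 155 peaks), and outside it was −0.82 (−0.87 to −0.78, 859 peaks). DeltaC was at least 2-fold below WT at 79 of the 155 (51.0%) and at 38.3% of those outside. This difference was not tested. Median signals were 183 in deltaC and 351 in WT within zones, and 202 in deltaC and 331 in WT outside. The same held among the other peaks of the class, with medians of −1.12 in zones and −0.85 outside. Of those, 57.9% in zones and 39.3% outside were at least 2-fold lower in deltaC. By distance, the repeat peaks had medians of −1.01 in zones, −1.01 within 50 kb of one (126 peaks), −0.83 from 50 to 500 kb (322) and −0.75 beyond 500 kb (411). The other peaks of the class had −1.12, −0.99, −0.86 and −0.80 in the same order. With peaks named for WT alone, a choice made after the data were seen, the repeat peaks had −1.01 in zones (−1.13 to −0.90) and −0.87 outside (−0.93 to −0.82). These intervals overlap.

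**Figure D3:**
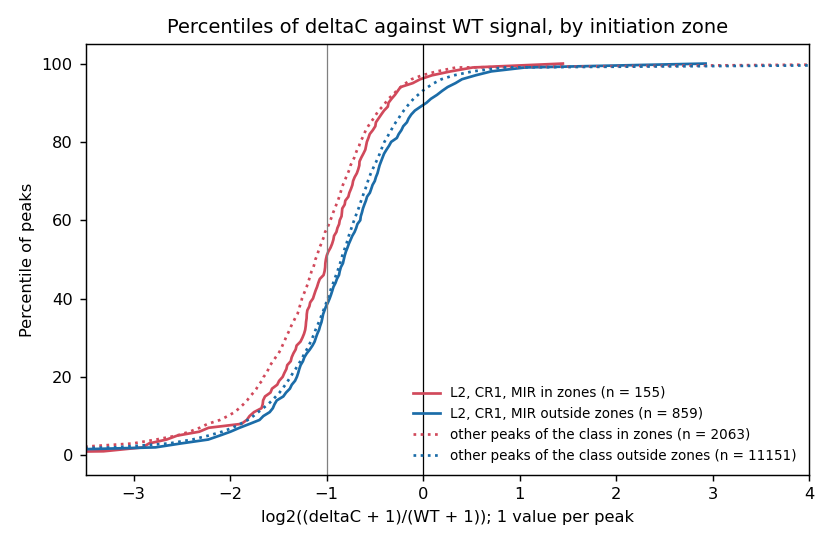
Percentiles of log2((deltaC + 1)/(WT + 1)) over peaks in L2, CR1 and MIR (solid) and over the other peaks of the class (dotted), in zones (red) and outside (blue); vertical lines mark −1 and 0, and values beyond the axis are not drawn. The red solid curve lies left of the blue one through the middle of the range, with medians of −1.01 in zones and −0.82 outside.

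The repeat peaks were spread thinly over the zones. Of 2473 zones, 145 (5.86%) held any, 135 of them 1 peak and 10 of them 2. Zones with such a peak had a median width of 78.1 kb and a median zone score of 1260, against 55.2 kb and 795 for all zones with MTBP. They held a median of 5 MTBP peaks, while 571 of the 2023 zones with MTBP held only 1. A zone with more MTBP peaks is more likely to hold 1 of any kind, so these values show no preference of the repeat peaks. The 3 highest-scoring of the 10 zones with 2 are described. The highest score belonged to chr2:38370371-38538433 at ATL2, a gene of endoplasmic reticulum fusion, with 12 MTBP peaks. Its L2c peak had 286 in deltaC and 532 in WT, and its L2b peak had 277 in deltaC and 100.8 in WT, so they stood on opposite sides of equality. That L2b peak was the only one of the 11 with 2-fold higher deltaC signal in a zone. In chr17:48108260-48380804, which spans part of the adaptor gene SKAP1, a MIRb peak had 139.5 in deltaC and 419.6 in WT, and an L2a peak had 119.8 in deltaC and 279.8 in WT. In chr9:111934001-112031785 at UGCG, the glucosylceramide synthase gene, an L3 peak had 192 in deltaC and 611 in WT, and an L2c peak had 97.8 in deltaC and 294 in WT. These 4 peaks were all at least 2-fold lower in deltaC, as were 51.0% of all repeat peaks in zones.

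In 13 zones a peak in one of these repeats was the only MTBP peak, of 571 zones with 1 MTBP peak. Widths and scores of the other zones with 1 MTBP peak were not compared with these. The 13 zones had a median width of 27.5 kb (6.30 to 64.5 kb) and a median score of 223. Their highest zone score, 1213, was at chr1:27843267-27890753, where a MIRb peak in THEMIS2 had 56.3 in deltaC and 268 in WT. At chr7:51338754-51371989 a MIRc peak 23793 bp from COBL, an actin nucleator gene, had 435 in deltaC and 598 in WT. At chr7:54981205-55008747 the only MTBP peak was the L2 peak upstream of EGFR whose sequence is given above. Across the 13, deltaC signal ran from 56.3 to 435 and WT signal from 209 to 598. At least 2-fold lower in deltaC were 7 of them, against 51.0% of all repeat peaks in zones. Of the repeat peaks in zones with further MTBP peaks, those of highest score lay outside protein-coding genes and are named by the nearest gene end. They were 48747 bp from PRAG1 (MIR, 815), 5632 bp from PKDCC (CR1_Mam, 757) and 113749 bp from CDC42EP3 (MIRb, 757). The CR1_Mam peak (chr2:42063203-42065096), 5632 bp from PKDCC, a secreted kinase gene, had the highest WT signal of all 1014, 1101 in deltaC and 1667 in WT. Next in score came peaks 13963 bp from ADGRG5 (MIRc, 729), 42004 bp from NABP1 (MIR1_Amn, 715) and 9216 bp from TMEM106C (L2c, 701). NABP1 encodes a single-stranded DNA binding protein.

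The zone share followed the distance to annotated start sites. By the authors' distances, 324 of the repeat peaks stood 10 kb or less from a start site (32.0%, 29.1% to 34.9%), against 57.2% of all MTBP peaks and 31.4% of the other peaks of the class. The class itself leaves out promoters, and by these distances the nearest repeat peak was 2038 bp from a start. The authors' distances do not count every RefSeq start. The 11 peaks that shared bases with a RefSeq promoter window of a LOC locus, given above, have other distances in the list. The share in zones was 22.1% within 5 kb (140 peaks), 20.1% from 5 to 10 kb (184) and 17.2% from 10 to 20 kb (232). It was 14.3% from 20 to 50 kb (293) and 3.03% beyond 50 kb (165, interval 0.991% to 6.93%). The other peaks of the class had 24.1%, 22.4%, 19.4%, 10.4% and 5.57% in the same bins. Crowding showed a like order. The zone share was 22.9% where another MTBP peak lay within 5 kb (297 peaks), 18.8% from 5 to 20 kb, 8.46% from 20 to 100 kb, and 1.18% beyond 100 kb (85 peaks). The other peaks of the class had 25.4%, 20.5%, 6.35% and 0.409% at the same spacings. Distance to start sites and crowding were not separated here.

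**Figure D4:**
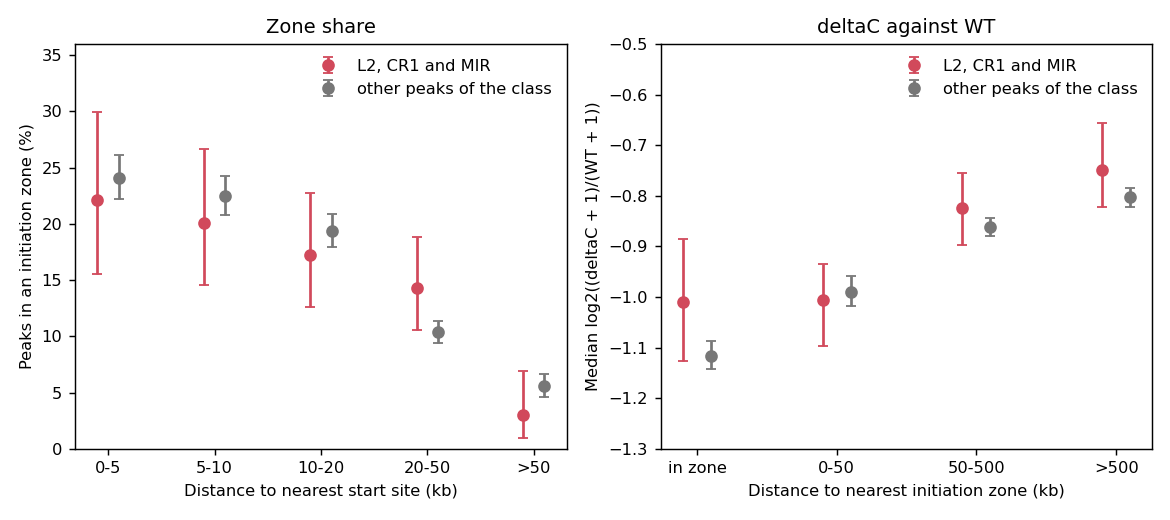
Left, share of peaks in an initiation zone (percent, exact binomial 95% interval) by distance to the nearest start site in kb; right, median log2((deltaC + 1)/(WT + 1)) with its 95% interval by distance to the nearest zone in kb, for L2, CR1 and MIR (red) and the other peaks of the class (grey). Both series decline on the left, with the red one at 22.1% within 5 kb and 3.03% beyond 50 kb, and move toward 0 on the right, with the red one at −1.01 in zones and −0.75 beyond 500 kb.

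Most of the repeat peaks were inside genes. Peak centres lay in a RefSeq gene of any type for 701 (69.1%, 66.2% to 72.0%), against 67.0% of all MTBP peaks and 64.8% of the other peaks of the class. Protein-coding genes held 563 of them, spread over 506 genes. The genes with at least 3 were PLCE1 (phospholipase C), PRKCE (protein kinase C), ROR1 (receptor kinase of Wnt signalling) and RORA (nuclear receptor), each with 3, and 0 of these lay in a zone. Inside genes 11.98% of repeat peaks were in zones, and outside genes 22.7%. The other peaks of the class had 11.9% inside genes and 22.4% outside. Of the 155 repeat peaks in zones 54.2% were in a gene, and of the 859 outside 71.8%.

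Nearly every one of these peaks carried H3K4me2. Of the 1014, 998 overlapped an H3K4me2 peak (98.4%, 97.5% to 99.1%), against 98.9% of all MTBP peaks. The part of background signal in this overlap was not tested. The H3K4me2 fold enrichment at these peaks, the authors' own, ran from 2.83 to 68.3 with a median of 18.9 (18.3 to 19.7). The median was 20.2 at the other peaks of the class and 23.6 at all MTBP peaks. The zone share did not follow the H3K4me2 fold, at 15.2%, 15.3%, 14.5% and 15.6% from the lowest to the highest quartile of the repeat peaks by fold. The H3K4me2 peaks under these MTBP peaks were 992 in number, and 134 of the repeat peaks (13.4%) shared theirs with a further MTBP peak.

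The 16 peaks without H3K4me2 had a median score of 101.5, and 4 of them lay in zones. The highest scores among them were of MIRb peaks in DLGAP4 (180) and NRAP (170), a MIR3 peak in TTC27 (140), and an L2c peak in GRIP2 and an L2 peak near CD9 (131 each). Signals were 140.5 in deltaC and 295 in WT in DLGAP4, and 147 in deltaC and 321 in WT in NRAP. The L2 peak (chr12:6254593-6254986), 16523 bp from CD9, a tetraspanin gene, was in a zone, with 94.7 in deltaC and 162 in WT. Over all 16, 11 were at least 2-fold lower in deltaC (68.8%, 41.3% to 89.0%), against 39.8% of the 998 with H3K4me2 and 44.9% of all MTBP peaks, and this difference was not tested.

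By subfamily, 20 repeat names were seen. The most frequent were MIRb with 174 peaks and MIR with 108 in the MIR family, L2c with 162 and L2a with 159 in the L2 family, and L3 with 49 and L3b with 17 in CR1. The 9 names with at least 40 peaks held 961 (94.8%). Their zone shares ran from 11.3% in L2a (6.85% to 17.3%) to 24.5% in the elements named L2 (13.3% to 38.9%), and these intervals overlap. Median scores ran from 160 to 211, and median H3K4me2 folds from 17.4 to 20.7. The median log2 ratio ran from −0.95 in L2a (−1.07 to −0.78) to −0.63 in MIR3 (−0.75 to −0.49, 59 peaks). Among the 9 names, the share of peaks at least 2-fold lower in deltaC ran from 23.7% in MIR3 to 46.5% in MIRc, with 45.3% in L2a. It was 42.2% over the other peaks of the class. MIR3 is singled out here as the extreme of these names. No test between subfamilies was made.

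**Figure D5:**
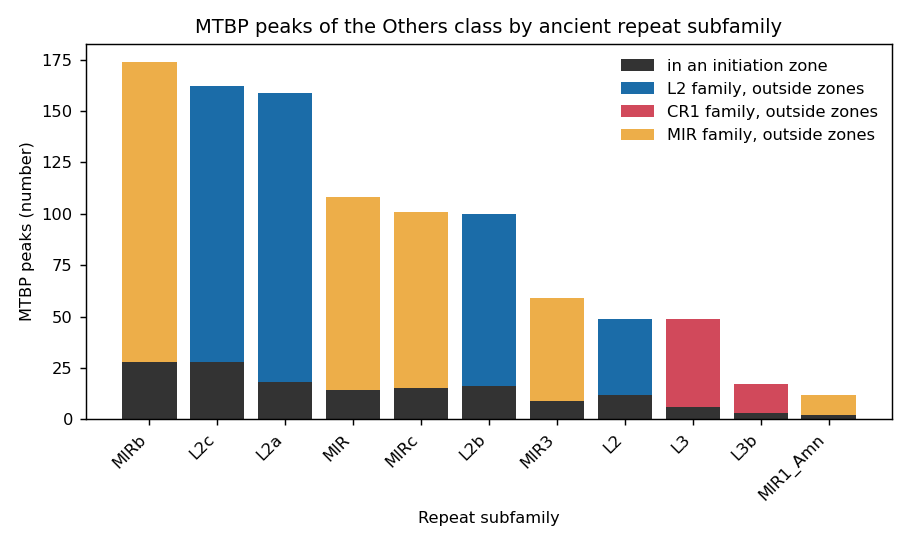
Number of MTBP peaks per repeat subfamily, for names with at least 10 peaks, with the part in an initiation zone in black and the rest coloured by family (L2 blue, CR1 red, MIR yellow). MIRb has 174 peaks with 28 in zones, L2c 162 with 28, and L2a 159 with 18.

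By chromosome, the repeat peaks were most numerous on chromosome 1 (122) and chromosome 2 (87). Chromosome 17 had 31, of which 38.7% lay in zones, with a median log2 of −1.13 and 64.5% at least 2-fold lower in deltaC. All peaks of the class there had 39.0% in zones, a median of −1.18 and 61.4% lower. Chromosome 19 had 10, of which 5 lay in zones. Chromosome 21 held 2, or 1.14% of its peaks in the class, the lowest share of any chromosome. On chromosome X there were 9.

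Peaks in these repeats were also looked up near genes of chosen functions. A repeat peak was centred within 50 kb of either end of 4 of 36 genes of colorectal and intestinal epithelium (11.1%, 3.11% to 26.1%), and of 3 of 24 genes of EGF receptor signalling and AP-1 (12.5%, 2.66% to 32.4%). It was so for 1 of 19 Wnt targets (5.26%), 2 of 42 genes of DNA replication (4.76%) and 1 of 32 markers of other tissues (3.13%). Over all 19970 protein-coding genes the share was 5.22%, or 1042 genes, which lies inside the intervals of the first 2 lists, and no list was tested. The L2 peak upstream of EGFR (chr7:54995541-54996682), 22906 bp from the gene, had 277 in deltaC and 498 in WT. An L3 peak in TGFA (chr2:70483469-70485049), which encodes a ligand of that receptor, had a score of 743, with 801 in deltaC and 1419 in WT. At DUSP5, a phosphatase of the same pathway, a MIR peak had deltaC signal of 149.7 and WT signal of 130.3. The L2c peak 15029 bp from CDH1, the E-cadherin gene (chr16:68721789-68722738), was in a zone, with 250.5 in deltaC and 489.5 in WT. The peaks at KRT20, CDH17 and GATA6 were outside zones, with log2 ratios of −1.33, −1.29 and −0.50. At TNFRSF19 the L2c peak had a log2 of −1.19. Among the genes of DNA replication, ORC3 had an L2c peak (141 in deltaC and 385 in WT) and POLE3 a MIR1_Amn peak (293 in deltaC and 630 in WT), neither in a zone. The tissue marker was NEFL, through the L2c peak near NEFM described above.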

How the data were processed

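DNA from DLD-1 cells was measured by CUT&RUN and EdU-seq in 22 libraries of 8 groups. The submitters' processing notes name Bowtie2, HOMER, MACS2 and Trim Galore, and build hg38. How replicates were pooled, how repeats were assigned, and all tool versions and settings are not given in the sources used. The deposited MTBP list gives the authors' score per peak, the authors' signal for each line, a distance (bp) from a start site and a summit position. The deposited zone list gives the authors' average score. The deposited H3K4me2 list gives a score, a fold enrichment (a ratio over background), and −log10 p-values and −log10 q-values, which the authors' caller wrote and which were not used here. Peaks on Y (10 of 29858) were left out.

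Overlap needed at least 1 bp. Ratios were log2((deltaC + 1)/(WT + 1)), with a pseudocount of 1 and a fold of 2 as threshold. Shares have exact Clopper-Pearson 95% intervals and medians order-statistic 95% intervals. They cover counting over peaks, not cultures. Overlap, distance and interval functions were tested on simulated data. Gene names and coordinates were RefSeq's (GRCh38.p14, which is hg38's assembly), and a gene held a peak where it held the peak's centre. Python 3.11.15, pandas 2.3.3, numpy 2.4.6, scipy 1.17.1 and matplotlib 3.10.9 were used.

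The peaks, gene lists and rules were chosen with earlier results of these data known. Named peaks were the 12 of highest score, the 6 of highest score in zones, the 5 lowest and 5 highest ratios, the 5 of highest score without H3K4me2, the widest and narrowest, the 3 zones with the most (the 3 highest-scoring of 10 tied at 2), and genes of 5 lists within 50 kb. The sets at least 2-fold higher in deltaC, at 0 in deltaC and alone in a zone were described after their values were seen. Alternatives changed the overlap, zone margin, pseudocount, signal filter, scaling and chromosomes.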

Additional observations from a re-analysis of the deposited data

How the results depend on the processing

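No paired analysis was possible because the deposited lists hold 1 value per line and no library values, and for the same reason no replicate could be left out. Of the recomputed values, 27 stayed within the 95% interval of the reported value, 12 fell outside it and 1 changed sign. Rescaling deltaC so that all MTBP peaks had a median log2 of 0 turned the repeat peaks' median to 0.079, with 7.10% at least 2-fold lower (7.64% of all peaks) and 8.38% at least 2-fold higher (3.73% of all), so the direction against WT rests on the authors' scaling. The other peaks of the class were not recomputed on that scale. Keeping peaks of at least the median signal gave a median log2 of −0.81 (−0.88 for all peaks). It gave 34.1% lower and 0% higher, against 39.3% and 0.0134% of all peaks. The zone share was 27.7% with zones widened by 50 kb (37.8% of all peaks). It was 11.6% with zones of at least the median score (17.8% of all). The share with H3K4me2 was 67.6% with H3K4me2 peaks of at least the median fold, against 80.1% of all peaks. It was 100% when MTBP peaks had to reach the list's median score, against 99.8% of all. Within 5 kb of a start site lay 13.8% (45.2% of all), and within 50 kb 83.7% (90.5% of all). In protein-coding genes lay 55.5% (54.9% of all). The medians in zones (−1.01 to −0.91) and outside (−0.87 to −0.78) stayed within their intervals under the pseudocounts, the signal filter, the loss of chromosome 17 and peaks named WT alone. With the signal filter, the intervals in zones (−1.05 to −0.81) and outside (−0.83 to −0.70) overlapped. Those of peaks named WT alone overlapped as well. For these medians the alternatives were chosen after seeing the data. Depth, library spread and the control libraries are not in these lists, so no value has an error between cultures.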
